A study of Mus musculus with 4 samples.

Results

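The telomere genes described here are 9 of the 24454 genes in a table of RNA-seq read counts from mouse hearts at postnatal day 7 (P7). They were chosen by name, with earlier results of these data known. The list holds *Pot1a*, *Pot1b*, *Terf1*, *Terf2*, *Terf2ip*, *Tinf2* and *Acd*, which encode the shelterin complex, and *Rtel1* and *Tert*, which encode a telomere helicase and the catalytic subunit of telomerase. All 9 were found by their Entrez Gene identifier, and all 9 passed the filter on low counts, as did 14266 genes in all. The comparison asked how transcripts of this machinery differ when *miR-128* is overexpressed in cardiomyocytes (CMs), and whether the paralogs *Pot1a* and *Pot1b* differ alike.

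Telomeres are the repeated sequences that cap chromosome ends. Shelterin coats them and keeps the DNA damage response from reading the end as a break. TRF1 (*Terf1*) and TRF2 (*Terf2*) bind the double-stranded repeat, RAP1 (*Terf2ip*) rides on TRF2, TIN2 (*Tinf2*) joins both to TPP1 (*Acd*), and TPP1 carries POT1, which covers the single-stranded overhang. The human genome has a single *POT1*, whereas the mouse has paralogs. POT1a is known for holding back the ATR kinase, and POT1b for limiting the resection that sets the length of the overhang. RTEL1 unwinds the looped telomere end so that it can be replicated, and telomerase adds new repeats. Most mouse CMs stop dividing in the first week after birth.

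The hearts came from C57BL/6 mice, with 2 libraries in each group. Mice of the miR-128OE group (WH9 and WH10) had the genotype *α-MHC*-tTA; *miR-128*TetRE, a "Tet-off" cross in which the *α-MHC* promoter drives the activator tTA in CMs and tTA drives a *miR-128* cassette placed in the Rosa26 locus once doxycycline is withdrawn. The Ctrl group (WH7 and WH8) were *miR-128*TetRE mice, which carry the same cassette without the activator, so tTA itself differs between the groups along with *miR-128*. When doxycycline was withdrawn for these mice, and whether a library was made from a single heart or a pool, is not given in the sources used here. The p-values therefore measure the spread between these libraries, which may be technical. The RNA was from whole hearts, so fewer cells of a type and less RNA per cell cannot be told apart.

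Library totals ran from 8096870 to 14359838 counts, and a floor of 3 counts corresponded to between 0.209 and 0.371 CPM (counts scaled to a common depth, here by the library total). Replicates differed beyond sampling noise, with a chi-square per degree of freedom of 9.91 between WH7 and WH8 and of 4.82 between WH9 and WH10. The labelled tissue was borne out by its defining transcripts: the 7 CM markers summed to between 485483 and 666856 normalized counts in a library. The condition coincided with sex in these libraries. *Xist*, which silences an X chromosome in females, had 14543 and 11339 counts in WH7 and WH8 and 94 and 132 counts in WH9 and WH10, while the Y-linked *Ddx3y* had 13, 7, 1442 and 1768 counts in the same order. Effects of *miR-128* and of sex cannot be told apart in any value below. All 9 telomere genes lie on autosomes.

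The overexpressed miRNA and the places where it could pair with telomere transcripts are shown first, because the miRNA is what the cross was made to raise. Whether it pairs with any of these places in the heart was not tested. The mature miRNA is encoded at chr1:128202404-128202424 on the plus strand and chr9:112118644-112118664 on the minus strand (RefSeq, GRCm38.p6), and its seed is in capitals.
mmu-miR-128-3p: uCACAGUGaaccggucucuuu
Sites were searched in the longest 3′ untranslated region (3′UTR) among the protein-coding transcripts of each gene (GENCODE M21, GRCm38). An 8mer pairs with the whole seed and has an A opposite the first base of the miRNA, a 7mer-m8 pairs with the whole seed without that A, and a 7mer-A1 has the A but lacks the pair at the last base of the seed. Of the 9 genes, 3 held a site and 6 held none, against 31.0% of the 13495 tested genes with a 3′UTR. The sites are given with their surroundings, in the sense of the transcript and with the site in capitals. All lie on the minus strand, at chr17:55653327-55653355 for *Pot1b*, chr8:107075590-107075619 for *Terf2* and chr14:55677904-55677932 for *Tinf2*.
Pot1b, 7mer-A1: agaaagttaggACTGTGActctaaaaagg
Terf2, 8mer: gtcctgacctgCACTGTGAaaggccttggc
Tinf2, 7mer-m8: gccacctgattCACTGTGcccggccagca
The *Pot1b* site begins at base 62 of a 3′UTR of 1455 bases, close to the stop codon, whereas the *Terf2* site begins at base 929 of 1020 and the *Tinf2* site at base 1417 of 1472. An 8mer was present in 6.03% of tested genes with a 3′UTR, a 7mer-m8 in 18.6% and a 7mer-A1 in 13.2%. A match is a description of letters in the transcript. No site was found in *Pot1a*.

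In miR-128OE hearts, *Pot1b* and *Rtel1* fell, and none of the 9 telomere genes rose. *Pot1b* fell by 48.3% and *Rtel1* fell by 28.1% in the fit. The other 7 genes did not pass the test. A gene was called when its p-value from the quasi-likelihood test of edgeR, adjusted over all 14266 genes by the Benjamini-Hochberg method, was under 0.05. By this rule 2 of 9 telomere genes were called lower, against a background of 15.0% of all genes tested. None of the 9 was called higher, against 16.5% of all genes, and 31.5% of all genes were called in either direction. The median log2 fold change of the 9 was −0.21, and that of all genes tested was −0.01. Both miR-128OE libraries lay below both Ctrl libraries for 5 of the 9, as they did for 34.4% of all genes tested. They lay above both Ctrl libraries for 0 of the 9 and for 33.7% of all genes, so that groups without overlap were common (68.1% of all genes in either direction). With 9 genes these counts describe the list and are no result about it as a whole. Scaling by total counts changed the calls over all genes from 2347 higher and 2143 lower to 1611 higher and 2948 lower, and *Pot1b* and *Rtel1* were still the called members.

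**Figure D1:**
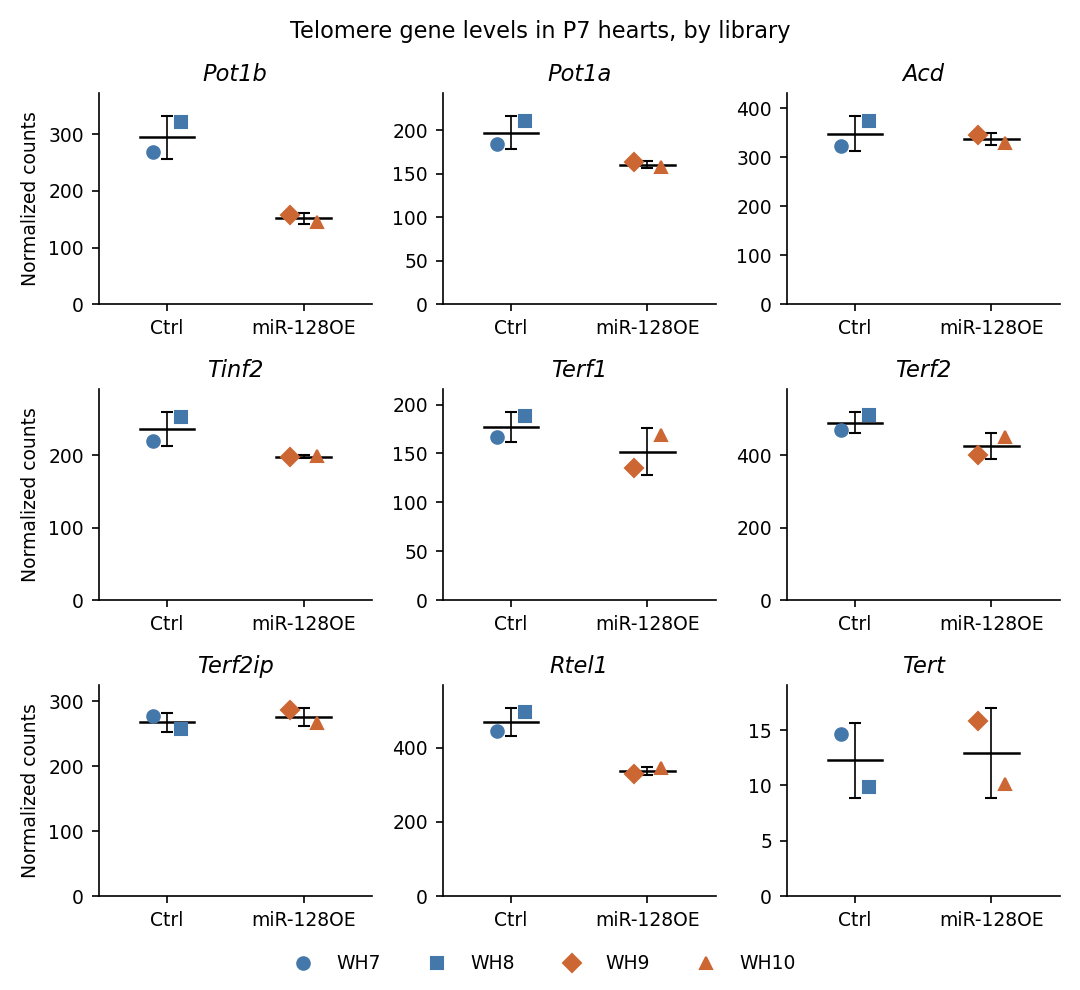
Normalized counts (vertical axes, each starting at 0) of the 9 telomere genes in each library of Ctrl (blue) and miR-128OE (orange) hearts, with the group mean (line) and SD (bars, n = 2). *Pot1b* stands at 268 and 321 in Ctrl and at 158 and 145 in miR-128OE hearts. *Rtel1*, *Pot1a*, *Terf2* and *Tinf2* also separate, and *Acd*, *Terf2ip*, *Terf1* and *Tert* overlap.

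*Pot1b* (Entrez 72836, chr17:55651951-55712628, minus strand) was the member with the largest difference. Its raw counts were 293 in WH7, 227 in WH8, 160 in WH9 and 172 in WH10. After scaling to a common library size, these became 268, 321, 158 and 145 normalized counts. Both miR-128OE libraries were well under the lower Ctrl library. The Ctrl mean was 294 ± 37.4 and the miR-128OE mean 152 ± 9.72 (SD, n = 2 each). The log2 fold change was −0.95 (95% interval −1.28 to −0.62, with a standard error (SE) of 0.15 and a quasi-likelihood adjusted p of 0.00142 by edgeR). Of all genes tested, 5.17% had a log2 fold change this low or lower. The call was kept in all 12 alternative analyses, including those without WH7, WH8, WH9 or WH10.

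*Pot1a* (Entrez 101185, chr6:25743737-25809246, minus strand), the paralog, had a smaller fold change. Its raw counts were 201, 149, 165 and 187 in WH7 to WH10. Normalized counts were 184 and 211 in Ctrl libraries and 163 and 157 in miR-128OE libraries. The groups did not overlap, but the gap between them was smaller than the gap between the Ctrl libraries. The Ctrl mean was 197 ± 18.9 and the miR-128OE mean 160.3 ± 4.30 (SD, n = 2 each). The log2 fold change was −0.29 (SE 0.15, 95% interval −0.62 to 0.04, edgeR quasi-likelihood adjusted p = 0.159), which did not pass.

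The paralogs were then compared within each library, where differences in depth cancel. *Pot1b* took 59.3% of the summed *Pot1a* and *Pot1b* counts in WH7 (95% Wilson interval 54.9 to 63.6) and 60.4% in WH8 (55.3 to 65.2). In miR-128OE hearts it took 49.2% in WH9 (43.8 to 54.6) and 47.9% in WH10 (42.8 to 53.1). *Pot1b* counts thus exceeded *Pot1a* counts in both Ctrl libraries, and the miR-128OE intervals covered an even split. The intervals cover counting error only, since reads without molecular identifiers are not independent molecules. The mean share was 59.8 ± 0.750% in Ctrl and 48.6 ± 0.933% in miR-128OE hearts (SD, n = 2 each). The log2 ratio of *Pot1b* to *Pot1a* was 0.54 and 0.61 in Ctrl and −0.04 and −0.12 in miR-128OE libraries. The difference between the group means of this ratio was −0.66. The exact permutation test (two-sided, n = 2 in each group) gave p = 0.33, the smallest value that 2 against 2 allows, so this test cannot pass in this design. The difference of the fitted log2 fold changes was also −0.66, with a standard error of 0.21 from both fits. This error treats the paralogs as independent, although both were counted in the same libraries. The summed normalized counts of the pair were 452 and 531 in Ctrl and 322 and 302 in miR-128OE hearts, so the pair as a whole was lower in both miR-128OE libraries.

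**Figure D2:**
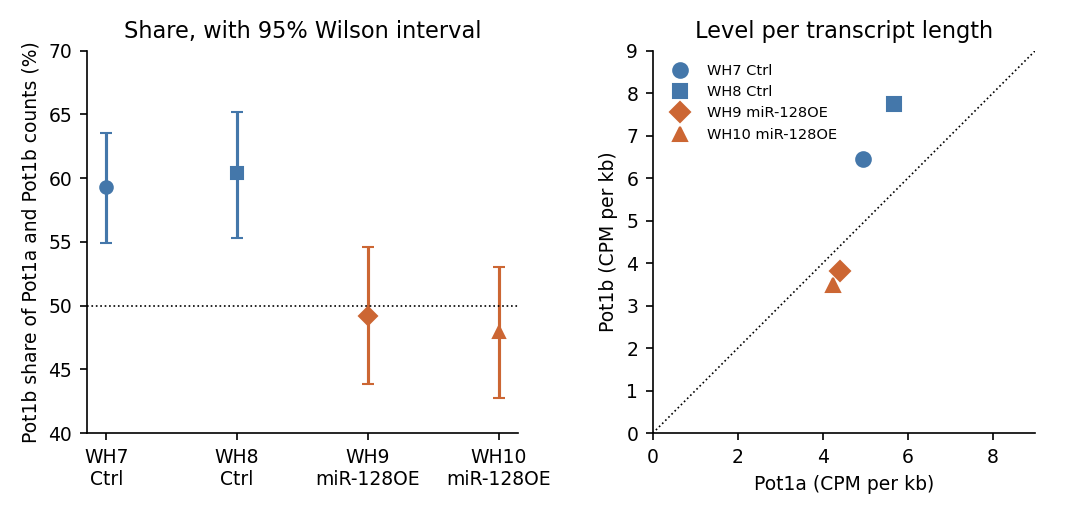
Left, the *Pot1b* share of summed *Pot1a* and *Pot1b* counts in each library (percent, axis from 40 to 70) with its 95% Wilson interval and a dotted line at an even split. Right, the level of *Pot1b* against *Pot1a* in CPM (by TMM-scaled library size) per kilobase of transcript, with a dotted line of equal level. Both Ctrl libraries lie above the line of equal level and both miR-128OE libraries below it.

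*Pot1a* and *Pot1b* are close in sequence, and how reads that fit both were counted is not stated. Their coding sequences are both 1920 bases long, and 78.8% of the 1917 aligned positions were identical. Over all annotated transcripts, however, the genes shared 0 stretches of 50 bases and 28 stretches of 25 bases. Reads of 50 bases or more without mismatch would thus fit only a single paralog of the pair. Their promoters are given from RefSeq (GRCm38.p6), reading toward the gene, because this is the pair on which the result turns. The *Pot1a* window is chr6:25809169-25809468 and the *Pot1b* window chr17:55712587-55712886, both on the minus strand (for *Pot1b*, the first of the windows listed). Capitals mark matches on either strand to the CCAAT box (CCAAT), the GC box (GGGCGG) or the cell cycle homology region (CHR, TTTGAA).
Pot1a promoter: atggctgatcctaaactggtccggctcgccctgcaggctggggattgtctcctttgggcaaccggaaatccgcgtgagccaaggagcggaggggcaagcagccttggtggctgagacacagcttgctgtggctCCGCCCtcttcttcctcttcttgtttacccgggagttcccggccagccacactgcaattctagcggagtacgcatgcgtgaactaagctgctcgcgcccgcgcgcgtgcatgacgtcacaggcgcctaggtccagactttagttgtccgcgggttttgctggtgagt
Pot1b promoter: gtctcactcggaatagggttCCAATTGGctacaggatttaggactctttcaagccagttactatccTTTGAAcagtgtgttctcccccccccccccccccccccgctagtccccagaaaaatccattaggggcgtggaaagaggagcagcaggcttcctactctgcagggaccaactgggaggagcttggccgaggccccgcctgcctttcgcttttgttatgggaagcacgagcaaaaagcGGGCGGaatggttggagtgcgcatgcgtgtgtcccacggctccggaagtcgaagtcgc
The *Pot1a* window held 1 GC box and neither of the other motifs. The *Pot1b* window held 1 GC box, 1 CHR match and 2 overlapping CCAAT matches, one on each strand. Over 32851 windows of the same length, 35.7% held a GC box, 37.4% a CCAAT box and 17.9% a CHR match. The E2F motif (TTTCGCGC or TTTGGCGC) was in 0.813% of windows and in none of the windows of the 8 members with an entry. The matches describe letters only.

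The partners that hold POT1 in shelterin, TPP1 and TIN2, did not pass the test. *Acd* (TPP1, chr8:105695860-105701102, minus strand) had 323 and 373 normalized counts in Ctrl and 346 and 328 in miR-128OE libraries, so the groups overlapped. The log2 fold change of *Acd* was −0.04 (SE 0.12, 95% interval −0.31 to 0.23, edgeR quasi-likelihood adjusted p = 0.823). *Tinf2* (TIN2, chr14:55674689-55681820, minus strand) had 219 and 253 normalized counts in Ctrl and 197 and 199 in miR-128OE libraries. The groups of *Tinf2* did not overlap, and the miR-128OE libraries were nearly equal. *Tinf2* had a log2 fold change of −0.24 (SE 0.14, 95% interval −0.55 to 0.06, edgeR quasi-likelihood adjusted p = 0.198). Strand was not stated for the counting, and parts of both genes overlap another gene on the opposite strand. *Gmpr2* shares 31.2% of the exonic bases of *Tinf2*, and its log2 fold change was −0.10 (edgeR adjusted p = 0.535). *Gmpr2* had between 314 and 360 normalized counts, more than *Tinf2* in every library. The part of *Gmpr2* reads in the *Tinf2* counts was not tested. *Carmil2* shares 33.3% of the exonic bases of *Acd* and had between 16.8 and 29.7 normalized counts, far fewer than *Acd*.

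The subunits on double-stranded telomeric DNA did not pass either. *Terf1* (TRF1, chr1:15805646-15844052, plus strand) had 166 and 188 normalized counts in Ctrl and 135 and 169 in miR-128OE libraries. WH10 thus lay above WH7, and the miR-128OE libraries were farther apart than the Ctrl ones. For *Terf1* the log2 fold change was −0.21 (SE 0.17, 95% interval −0.59 to 0.17, edgeR quasi-likelihood adjusted p = 0.368). *Terf2* (TRF2, chr8:107069400-107096547, minus strand) had 470.0 and 512 normalized counts in Ctrl and 400.0 and 451 in miR-128OE libraries. These groups did not overlap, though WH10 and WH7 were close. The fitted log2 fold change was −0.20 (SE 0.11, 95% interval −0.44 to 0.04, edgeR quasi-likelihood adjusted p = 0.186). *Terf2* holds the 8mer shown above, the longest of the pairing classes. *Terf2ip* (RAP1, chr8:112011398-112020528, plus strand) had 278 and 257 normalized counts in Ctrl and 286 and 267 in miR-128OE libraries, which overlap. *Terf2ip* had a log2 fold change of 0.04 (SE 0.12, 95% interval −0.23 to 0.31, edgeR quasi-likelihood adjusted p = 0.826). The intervals of *Acd* and *Terf2ip* leave room for modest changes in either direction, and do not show that these genes are alike in both groups.

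*Rtel1* (Entrez 269400, chr2:181319739-181356616, plus strand) encodes the helicase that opens telomere loops and clears G-quadruplexes ahead of the replication fork. Its raw counts were 486 in WH7, 352 in WH8, 333 in WH9 and 410 in WH10. Normalized counts were 444 and 497 in Ctrl and 329.7 and 345 in miR-128OE libraries. Every miR-128OE library was below every Ctrl library by more than the libraries of a group differed. The Ctrl mean was 471 ± 37.5 and the miR-128OE mean 337 ± 10.7 (SD, n = 2 each). The log2 fold change was −0.48 (SE 0.11, 95% interval −0.72 to −0.23, edgeR quasi-likelihood adjusted p = 0.00997). The *Rtel1* call rested on both miR-128OE libraries. Without WH9 the log2 fold change was −0.43 with an adjusted p of 0.114, and without WH10 it was −0.49 with an adjusted p of 0.0662, from the same test. The 3′UTR of *Rtel1*, 526 bases long, held no seed site.

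*Tert* (Entrez 21752, chr13:73626911-73649843, plus strand) encodes the reverse transcriptase of telomerase and was close to the limit of detection. Its raw counts were 16, 7, 16 and 12 in WH7 to WH10, above the floor of 3 counts in every library. Normalized counts were 14.6 and 9.89 in Ctrl and 15.8 and 10.1 in miR-128OE libraries, and the groups overlapped. The log2 fold change was 0.02, but with a standard error of 0.48 and a 95% interval of −1.05 to 1.09 (edgeR adjusted p = 0.979). At this depth, a change of *Tert* within that interval was not detectable. *Terc*, the RNA template of telomerase, had 1 count in WH7 and 0 in the other libraries and was not tested. The sources used here do not say whether the library preparation kept an RNA of this kind.

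**Figure D3:**
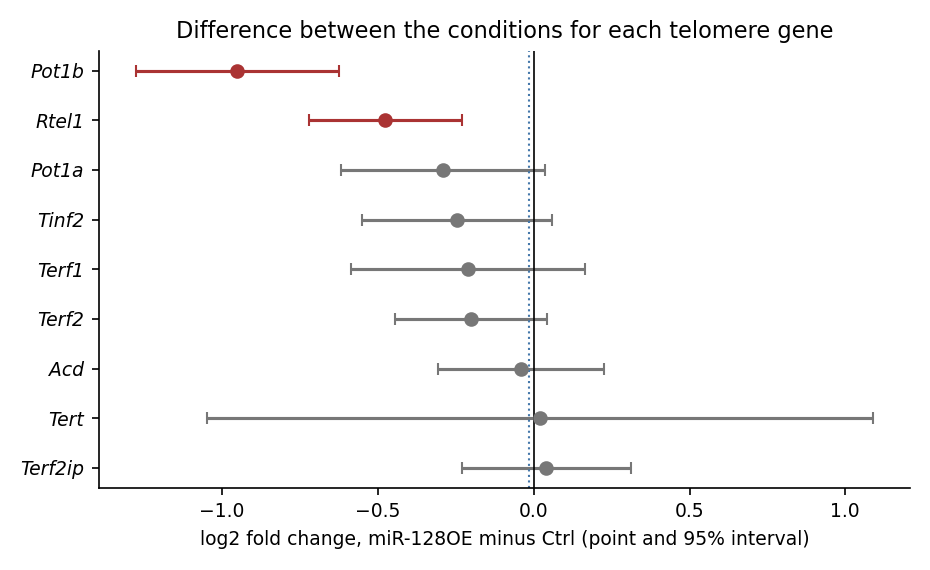
Log2 fold change of each telomere gene, miR-128OE minus Ctrl (point), with its 95% interval from edgeR's quasi-likelihood test; called genes are red, and the dotted line is the median of all genes tested (−0.01). The intervals of *Pot1b* and *Rtel1* lie below 0, those of the other genes span 0, and that of *Tert* is the widest.

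Levels were compared between genes per length of transcript, as CPM per kilobase of the longest coding transcript, with CPM here taken from the TMM-scaled library size. In Ctrl hearts *Terf2* was highest, with a mean of 15.6. It was followed by *Acd* at 9.37 and *Rtel1* at 9.09, whose library ranges overlapped. *Pot1b* at 7.10, *Tinf2* at 6.79, *Terf1* at 6.64 and *Terf2ip* at 6.39 formed a run of neighbours whose ranges overlapped. *Pot1a*, at 5.32, was the lowest of the shelterin genes, below the range of *Terf2ip*, and *Tert* stood far lower at 0.241. In miR-128OE hearts *Terf2* (13.5) and *Acd* (9.07) again led, and their order was clear of overlap. Next came *Terf2ip* at 6.59 and *Rtel1* at 6.51, which overlapped, and *Tinf2* and *Terf1*, both at 5.69 and also overlapping. *Pot1a* followed at 4.32, and *Pot1b* at 3.65 was then the lowest of the shelterin genes, below the range of *Pot1a*. *Pot1b* had thus gone from rank 4 to rank 8 of the 9, and *Tert* was last again at 0.255. This order depends on the transcript taken for the length, which may not be the one made in the heart.

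The other genes of telomere maintenance were grouped by role in lists of 51 genes, of which 47 were tested. Of these, 14 were called lower, 3 higher and 30 neither, and their median log2 fold change was −0.18. The shares called among all genes tested were 15.0% lower and 16.5% higher. The lists, too, were chosen with earlier results of these data known. Genes that duplicate and trim chromosome ends were called only on the lower side, whereas those of telomerase assembly were called in both directions. Without WH9, 14 of the 17 called genes no longer passed, and without WH10, 7 did not. Calls over all genes dropped as well, to 897 higher and 667 lower without WH9 and to 1265 higher and 1020 lower without WH10. Of the 17, only *Pola1*, *Prim1* and *Rif1* passed in each of the 12 alternatives. A seed site was present in 3 of the 14 that were lower, in 1 of the 3 that were higher and in 11 of the 30 that were not called.

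The CST complex binds the single-stranded overhang after telomerase has extended it and brings in DNA polymerase alpha-primase to fill in the opposite strand. Of its 7 genes with polymerase alpha-primase, 4 were lower and 0 higher, with a median log2 fold change of −0.38. *Prim1*, the catalytic primase subunit, had 305 and 370 normalized counts in Ctrl and 160 and 188 in miR-128OE libraries. The groups lay far apart. Its log2 fold change was −0.94 (SE 0.15, edgeR quasi-likelihood adjusted p = 0.00153). *Pola1*, the X-linked catalytic polymerase subunit, had raw counts of 340, 235, 202 and 231 in WH7 to WH10, which left both miR-128OE libraries lower once depth was scaled. Its log2 fold change was −0.70 (SE 0.12, edgeR quasi-likelihood adjusted p = 0.00262). The accessory subunit *Pola2* had a log2 fold change of −0.38 and *Ctc1*, the large subunit of CST, of −0.37 (edgeR adjusted p = 0.0274 and 0.0288). Each call passed in 8 of 12 alternatives. Both were lost with DESeq2, without WH9 and without WH10, that of *Pola2* also without WH8, and that of *Ctc1* also with an offset for GC content and length. The other CST genes did not pass, with log2 fold changes of 0.06 for *Stn1* and 0.23 for *Ten1*.

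Among 14 genes of end processing and telomere replication, 5 were lower and 0 higher, and the median log2 fold change was −0.50. *Rif1*, which sets replication timing and acts at damaged ends, had 1198 and 1288 normalized counts in Ctrl and 854 and 797 in miR-128OE libraries. The groups did not overlap. Its log2 fold change was −0.59 (SE 0.09, edgeR quasi-likelihood adjusted p = 0.00112). *Atm*, the kinase that shelterin keeps silent through TRF2, had a log2 fold change of −0.68 (edgeR adjusted p = 0.00658). *Mre11a*, a nuclease of the MRN complex, had one of −0.60 (edgeR adjusted p = 0.0122), while its partners *Rad50* (−0.16) and *Nbn* (−0.03) did not pass. The nuclease and helicase gene *Dna2* had a log2 fold change of −0.72, and the helicase gene *Pif1* of −0.82 (edgeR adjusted p = 0.0221 and 0.0146). The calls of *Atm*, *Dna2*, *Pif1* and *Mre11a* were lost without WH9, and that of *Mre11a* also without WH10. The exonuclease gene *Exo1* missed the threshold at a log2 fold change of −1.06 (SE 0.36, edgeR quasi-likelihood adjusted p = 0.0502). *Exo1* passed in 7 of 12 alternatives, and over all 12 its log2 fold change ran from −1.73 to −0.55. In normalized counts, WH10 with 22.7 was far below WH9 with 51.5.

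Of 13 genes of the telomerase complex and its assembly, 12 were tested, 2 rose and 2 fell, and the median log2 fold change was −0.01. The transcripts of the H/ACA core that binds the telomerase RNA were split. *Dkc1* (dyskerin, X-linked) had 732 and 766 normalized counts in Ctrl and 531 and 542 in miR-128OE libraries, with a log2 fold change of −0.48 (SE 0.09, edgeR quasi-likelihood adjusted p = 0.00345). *Nop10* had 593 and 567 normalized counts in Ctrl and 872 and 766 in miR-128OE libraries, with a log2 fold change of 0.50 (SE 0.10, edgeR quasi-likelihood adjusted p = 0.00468). Transcripts of *Dkc1* and *Nop10* thus moved in opposite directions, each without overlap between groups. Both calls were lost without WH9 and kept in the other 11 alternatives, with adjusted p-values without WH9 of 0.0639 for *Dkc1* and 0.0792 for *Nop10*. Over all 12 alternatives the log2 fold change ran from −0.58 to −0.41 for *Dkc1* and from 0.40 to 0.60 for *Nop10*. *Nhp2* lay at the threshold, with a log2 fold change of 0.37 and an adjusted p of 0.04997, and passed in 4 of 12 alternatives. *Gar1* did not pass (−0.10). *Tep1*, a telomerase-associated protein also found in vaults, had a log2 fold change of −0.53 (edgeR adjusted p = 0.0274) and passed in 7 of 12 alternatives. These core proteins also serve the H/ACA RNAs of ribosome and spliceosome assembly.

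Among 14 regulators of shelterin and telomere chromatin, 1 rose and 3 fell, and the median change was close to 0 (−0.0045 on the log2 scale). *Gnl3l*, an X-linked gene whose nucleolar protein stabilizes TRF1, had a log2 fold change of 0.43 (edgeR adjusted p = 0.0103). *Smg6*, an endonuclease of nonsense-mediated decay related to the yeast telomerase subunit Est1, had a log2 fold change of −0.38 (edgeR adjusted p = 0.0103). *Atrx*, an X-linked chromatin remodeller that deposits histone H3.3 at telomeres, had a log2 fold change of −0.36 (edgeR adjusted p = 0.0128). Its partner *Daxx* did not pass (0.04). The tankyrase genes *Tnks* and *Tnks2* did not pass either (0.07 and 0.14). The calls of *Gnl3l*, *Smg6* and *Atrx* were lost without WH9, those of *Smg6* and *Atrx* also without WH10, and that of *Atrx* also with an offset for GC content and length. The meiotic telomere genes *Terb1*, *Terb2* and *Majin* had between 0 and 5 counts in a library and were not tested. Of 491 tested genes on the X chromosome, 86 rose and 83 fell (median log2 fold change 0.01). Among all genes tested, 16.5% were called higher and 15.0% lower.

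**Figure D4:**
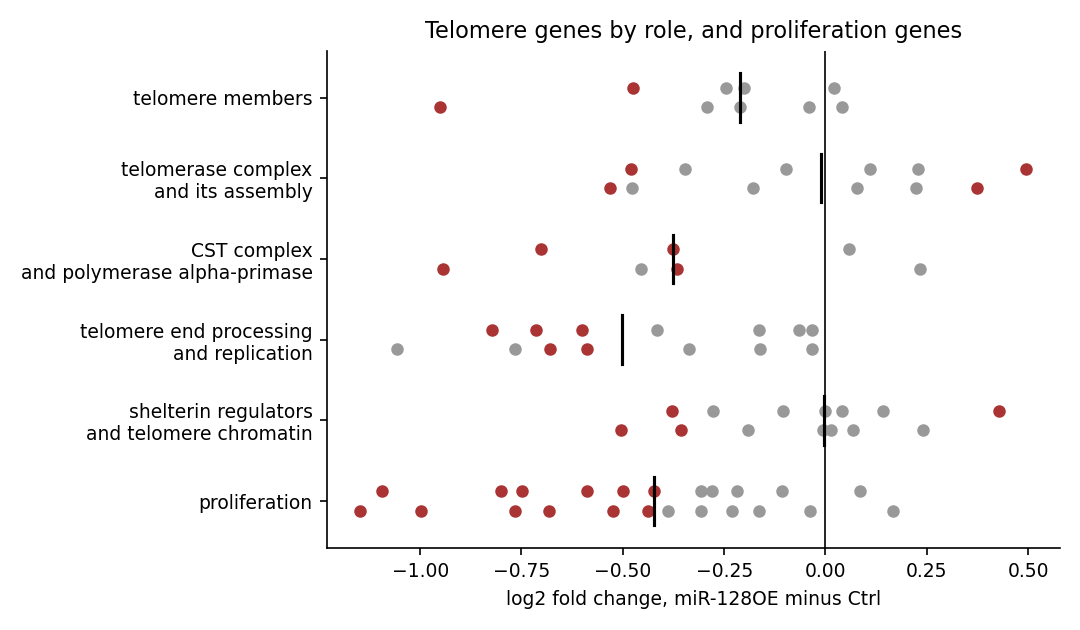
Log2 fold change, miR-128OE minus Ctrl, of each tested gene (points) in the telomere lists and in a list of proliferation genes, with the median of each list as a vertical bar. Called genes are red; the lists of CST with polymerase alpha-primase, of end processing and of proliferation hold called genes only on the lower side.

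Proliferation genes and cell type markers were compared between the groups as well. For the counts of called genes below, the shares over all genes tested were 15.0% lower and 16.5% higher. The 23 proliferation genes had 12 lower and 0 higher and a median log2 fold change of −0.42. Their summed normalized counts were 12352 and 14745 in Ctrl and 9421 and 9345 in miR-128OE libraries. The 9 telomere genes together summed to 2368 and 2622 in Ctrl and 2031 and 2071 in miR-128OE libraries. Of the 7 CM markers 3 were higher and 1 lower, with sums of 485483 and 517900 in Ctrl and 666856 and 649798 in miR-128OE libraries. Smooth muscle and pericyte markers had 2 higher and 1 lower of 7, with sums from 20964 to 22452 in Ctrl and from 26788 to 30595 in miR-128OE libraries. Endothelial markers had 2 higher and 1 lower of 7, with sums from 17418 to 17479 in Ctrl and from 18278 to 19588 in miR-128OE libraries. Of 4 adipocyte markers 3 were higher, with sums of 390 and 391 in Ctrl and 840 and 638 in miR-128OE libraries. Fibroblast markers had 1 higher of 7, and their Ctrl sums, 116710 and 75809, enclosed those of miR-128OE libraries. Macrophage and lymphocyte markers had none called. For macrophage markers the sums were 1060 to 1449 in Ctrl and 1167 to 1184 in miR-128OE libraries, and for lymphocyte markers 214 to 252 and 196 to 204. Of the erythroid markers, the 4 globin genes were at 0 in every library, and 1 of the 2 tested genes was higher. The part of proliferation or cell makeup in the levels of *Pot1b*, *Rtel1* and the other telomere genes was not tested.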

How the data were processed

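Telomere genes were read from 4 RNA-seq libraries of P7 hearts (2 Ctrl, 2 miR-128OE). After quality filtering, the authors aligned reads with TopHat2 (mm10), counted those on known genes with Bioconductor packages, and deposited raw counts per Entrez gene. The gene models, the use of strand and the treatment of reads with several matches are not given in the sources used here. Library totals ran from 8096870 to 14359838 counts. Of 24454 identifiers, 24374 matched a RefSeq symbol (GRCm38.p6) and 24076 matched GENCODE M21. The members and the gene lists were chosen with earlier results of these data known.

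Counts were tested in R 4.3.3 with edgeR 4.0.16, after the negative binomial model that the authors name. filterByExpr (minimum count 10, minimum total 15), TMM factors and the quasi-likelihood test were used, with Benjamini-Hochberg adjustment over 14266 genes and a threshold of 0.05. A normalized count is a TMM-scaled count at the mean effective library size. The standard error is the log2 fold change over the square root of F. The test was tried on simulated counts first. For the log2 ratio of *Pot1b* to *Pot1a*, 0.5 was added to each count, and an exact permutation test was run in scipy 1.17.1.

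Named genes are the 9 members and, in the other telomere lists, genes past the threshold or on the X chromosome. A gene under this rule is not reported here. A few genes that did not pass are named beside their partners and were chosen after their values were seen. Alternatives were the likelihood ratio test, DESeq2 1.42.0, other size factors, no filter, a minimum of 1 CPM, a loess offset (span 0.5) for GC content and length, and each library left out.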

Additional observations from a re-analysis of the deposited data

How the results depend on the processing

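*Pot1b* was called lower in 12 of 12 alternatives, with log2 fold changes from −1.08 to −0.82 and adjusted p-values from 1.11e-08 to 0.0195. *Rtel1* was called in 10 of 12, from −0.58 to −0.39, with adjusted p-values from 0.00108 to 0.114; the calls lost were those without WH9 or WH10. The other 7 members passed in 0 of 12, though *Tert* was given no adjusted p-value by DESeq2. With 1 library left out, the members called lower were 1 to 2, the other telomere genes called lower 4 to 17 and higher 0 to 3, and all genes called lower 667 to 2384 and higher 897 to 2654, the smallest counts being those without WH9. The remaining library of a group is then assumed to vary like the other group. DESeq2 called 1410 genes lower. Scaling by total counts moved the median of all genes from −0.01 to −0.11 and the split of calls from 2347 higher and 2143 lower to 1611 and 2948. The sign turned for 3 members near 0. *Terf2ip* had −0.0056 with upper-quartile factors, −0.059 with total counts and −0.0067 to 0.11 with 1 library left out. *Tert* had −0.026, −0.080 and −0.30 to 0.37 in the same order. *Acd* had −0.15 to 0.063 with 1 library left out. The cause was not tested. No paired analysis was possible because the library numbers are unique and the labels pair no samples. Depth limits *Tert* and *Terc*, and 2 libraries in each group limit every test.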
